A study of Mus musculus with 8 samples.

Results

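The 10 genes examined encode the metallothioneins Mt1, Mt2 and Mt3 and the main proteins that carry, take up, store, export and release iron: Trf, Tfrc, Fth1, Ftl1, Slc40a1, Cp and Hmox1. They were chosen by symbol, through the Ensembl identifiers of the count tables, and are 10 of 31053 gene entries. RNA was measured in retinal pigment epithelium (RPE) isolated at postnatal day 29 (P29) from Bbs8-/- mice and their Bbs8+/+ littermates on a C57/Bl6 background, with 4 libraries of each genotype and no treatment. Bbs8, also named Ttc8, encodes a subunit of the BBSome, a protein complex that moves membrane proteins into and out of cilia. The allele is a germline knock-out, carried by every tissue of the animal. The RPE was peeled off the choroid as sheets after cornea, lens and retina had been removed and the eyecup had been treated with trypsin.

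Libraries were made with a 3′ mRNA kit, in which a transcript gives reads at its end only. Levels are given as CPM, counts scaled to the size of the library, which are therefore not divided by transcript length; levels of different genes are compared on that scale. Between 2389835 and 3093428 reads per library were counted on genes: 3093428, 2736947, 2495094 and 2790955 in Bbs8+/+ libraries 1 to 4, and 2389835, 2722440, 2415310 and 2736289 in Bbs8-/- libraries 1 to 4. At this depth 3 counts amounted to 0.970 to 1.26 CPM before any further scaling, for counting error only. Each animal was a biological replicate, so p-values rest on the spread between animals. In edgeR's test the spread of a gene is moderated by that of all genes tested. All other CPM were scaled by TMM factors, which correct for differences in RNA composition between libraries.

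Ttc8 (ENSMUSG00000021013), the targeted gene, had 105, 142, 144 and 116 counts in Bbs8+/+ libraries 1 to 4, against 15, 5, 14 and 15 counts in Bbs8-/- libraries 1 to 4. Its level was low in each Bbs8-/- library and the genotypes did not overlap. It fell by 3.34 on the log2 scale (SE 0.294, adjusted p = 2.47e-11, edgeR quasi-likelihood test), from 47.6 ± 10.3 to 4.70 ± 1.97 CPM (SD, n = 4). The reads come from the transcript's end, and the part of the gene that the allele removes is not given in the sources used here.

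Metallothioneins are small cysteine-rich proteins that bind zinc and copper, and their genes are switched on by metals through the zinc sensor Mtf1 as well as by glucocorticoids and oxidative stress. Transferrin (Trf) carries ferric iron to the transferrin receptor (Tfrc), ferritin (Fth1 and Ftl1) stores it, ferroportin (Slc40a1) exports it, ceruloplasmin (Cp) oxidises it for loading onto transferrin, and haem oxygenase (Hmox1) frees it from haem. The RPE takes iron from the choroidal blood towards photoreceptors, clears the iron-containing outer segments they shed, and makes transferrin itself.

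Of the 10 genes, Mt1, Mt2 and Trf were higher in the RPE of Bbs8-/- mice, past an adjusted p of 0.05, and none was down-regulated by edgeR's quasi-likelihood test. Among all 12889 genes tested, 704 (5.46%) were up-regulated and 877 (6.80%) down-regulated, or 1581 (12.3%) in either direction. Of these 1581 calls 44.5% were up; with libraries scaled by their size alone the share was 60.5%, and with libraries scaled to RPE marker genes, a setting chosen after seeing the data, it was 55.2%. In the same 3 genes every Bbs8-/- library lay above every Bbs8+/+ library, which held for 957 (7.42%) of all genes tested, and the reverse held for 1111 (8.62%) of all genes and for 0 of the 10. At an unadjusted p under 0.05, 4 of the 10 were higher, with Ftl1 in addition by a p of 0.0491, and 0 were lower, against 1453 (11.3%) and 1563 (12.1%) of all genes tested; DESeq2 called the same 3 genes up and 0 down. The median log2 fold change of the 10 genes was 0.17, against 0.02 over all genes tested, and 8 estimates were above 0. All 10 passed the filter of at least 1 CPM in at least 4 libraries. Summed over the 10 genes, the level was 11761 ± 612 CPM in Bbs8+/+ and 17577 ± 485 CPM in Bbs8-/- libraries (SD, n = 4). Mt1, Mt2 and Trf made up 88.7% to 92.7% of the counts of the 10 genes in each library, so the sum mostly follows these 3.

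**Figure D1:**
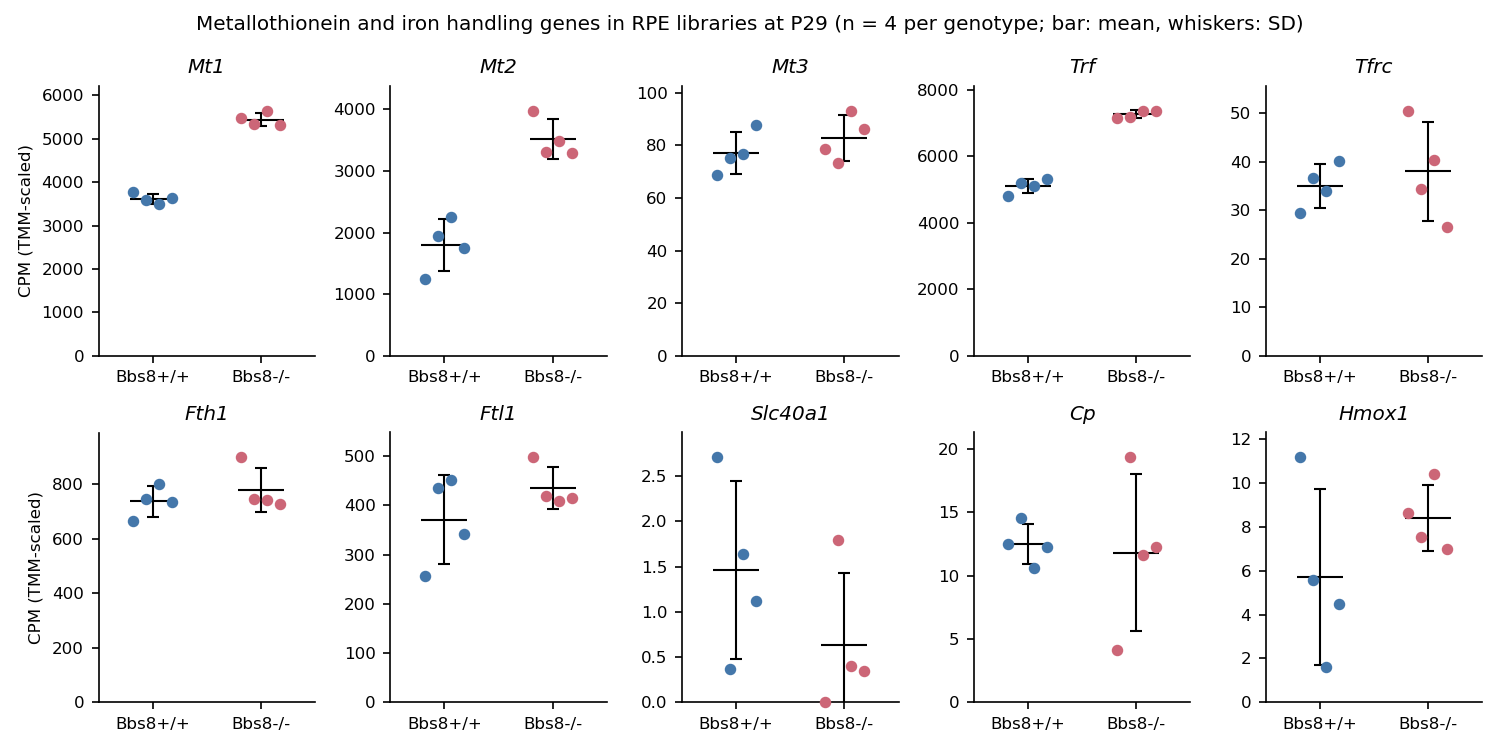
CPM of each of the 10 genes (vertical axes, TMM-scaled, each starting at 0) in the 4 Bbs8+/+ and 4 Bbs8-/- libraries; points are libraries, bars the mean and whiskers the SD, which for Slc40a1 runs past 0 and is not drawn below it. The genotypes separate for Mt1, Mt2 and Trf and overlap for the other genes.

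Mt1 and Mt2 encode the widely expressed metallothioneins, and their genes lie side by side on chromosome 8. On GRCm38, Mt2 (ENSMUSG00000031762) spans chr8:94172664-94173568 and Mt1 (ENSMUSG00000031765) chr8:94179082-94180327, with Mt3 (ENSMUSG00000031760) before them at chr8:94152607-94154146, all on the plus strand. Mt4, the epithelial metallothionein, precedes Mt3 and had 0 counts in all 8 libraries. Gaps of 13.6, 18.5 and 5.51 kb separate the genes in the order Mt4, Mt3, Mt2, Mt1. Within 200 kb on either side of this cluster 8 genes were tested, and Mt1 and Mt2 were the 2 of them past the threshold. Among the tested neighbours outside the cluster, log2 fold changes were -0.45 for Ogfod1, 0.27 for Nudt21, 0.27 for Bbs2 and -0.06 for Nup93; these genes were chosen for their position.

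For Mt1, Mt2 and Mt3, up to 250 bases before the start that RefSeq or Ensembl gives first are shown. They come from the RefSeq promoter windows of GRCm38.p6 and are a description only, since their part in the RNA levels was not tested. For Mt2, whose first Ensembl transcript begins 46 bases after the RefSeq start, the stretch ends at the RefSeq start. Capitals mark matches, on either strand, to the core letters of the metal response element bound by Mtf1, TGCGCNC or TGCACNC.
Mt1, chr8:94178839-94179081, plus strand: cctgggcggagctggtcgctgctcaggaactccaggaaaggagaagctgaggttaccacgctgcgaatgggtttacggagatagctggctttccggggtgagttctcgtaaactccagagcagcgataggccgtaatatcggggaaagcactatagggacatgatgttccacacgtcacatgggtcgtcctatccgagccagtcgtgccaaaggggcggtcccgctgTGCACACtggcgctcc
Mt2, chr8:94172368-94172617, plus strand: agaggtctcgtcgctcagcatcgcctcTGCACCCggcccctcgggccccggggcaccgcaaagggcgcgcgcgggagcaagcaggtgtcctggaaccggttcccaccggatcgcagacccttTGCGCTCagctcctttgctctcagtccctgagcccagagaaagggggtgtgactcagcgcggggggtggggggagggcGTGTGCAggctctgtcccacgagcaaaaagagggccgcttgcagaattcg
Mt3, chr8:94152357-94152606, plus strand: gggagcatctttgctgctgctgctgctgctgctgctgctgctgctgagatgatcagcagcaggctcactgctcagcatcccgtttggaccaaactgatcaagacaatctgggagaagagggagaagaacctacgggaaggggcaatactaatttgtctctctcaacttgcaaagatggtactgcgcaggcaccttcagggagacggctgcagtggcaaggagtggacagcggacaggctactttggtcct
The stretch shown for Mt1 holds 1 match, that for Mt2 holds 3 (2 forward and 1 reverse) and that for Mt3 holds 0. A further Mt2 match, at bases 5 to 11 after the RefSeq start, lies before the first Ensembl start and is not in the stretch shown. Also not shown are Mt1 matches at bases 3 to 9 and 21 to 27 and an Mt3 match at bases 28 to 34. These lie after the first Ensembl start of their gene and before its later ones.

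RefSeq windows of 300 bases, 250 before and 50 after a start, were found for 7 of the 10 genes; Trf, Slc40a1 and Hmox1 had no entry. Over a whole window there were 3 metal response core matches at Mt1, 4 at Mt2 and 1 at Mt3. The Tfrc windows held 2 and 0, and the Fth1, Ftl1 and Cp windows held 0. Of 32851 windows in the table, 15.4% hold TGCGCNC, 12.6% TGCACNC and 25.7% either form; 1.97% hold at least 3 matches and 0.517% at least 4. One form of the core cannot be read as the other, but matches on opposite strands can overlap, as a pair in a Tfrc window did. All 3 genes have Ensembl transcripts that begin 46 to 242 bases after the start used for the window, whose own upstream bases lie partly outside the window. The antioxidant response core TGACNNNGC, present in 12.4% of windows, had 1 match at Mt2 and 0 at the other 6 genes. The hypoxia response core, ACGTG or GCGTG, is present in 43.8% of windows in either form. It had 2 matches at Mt1, 2 at Mt2 and 0 at Mt3. Among the other genes it had 3 in each Tfrc window, 1 at Ftl1, 0 and 1 in the Fth1 windows and 0 at Cp. These short cores can overlap a metal response core. Metal response cores were also sought in windows of genes outside the 10. Slc30a4 held 3, Atp7a and Slc30a1 held 2 each, Flvcr2 and Mt4 held 1 each, and Slc39a10 and Nqo1 held 0. A match describes letters in the window and not the binding of a factor.

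Mt1 stood at 3770.5, 3585, 3494 and 3626 CPM in Bbs8+/+ libraries 1 to 4 and at 5469.6, 5328, 5648 and 5307 CPM in Bbs8-/- libraries 1 to 4. Libraries of a genotype lay close together, and the lowest Bbs8-/- library was well above the highest Bbs8+/+ library. The mean was 3619 ± 115 CPM in Bbs8+/+ and 5438 ± 157 CPM in Bbs8-/- (SD, n = 4), a fold change of 1.503 and a log2 fold change of 0.59 (SE 0.0491, adjusted p = 6.59e-12, edgeR quasi-likelihood test).

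Mt2 stood at 1241, 1942, 2248 and 1751.5 CPM in Bbs8+/+ animals and at 3982.5, 3314, 3483 and 3292 CPM in Bbs8-/- animals. It varied more between animals than Mt1, with Bbs8+/+ library 1 the lowest and Bbs8-/- library 1 the highest, but again without overlap. The mean rose from 1796 ± 423 to 3518 ± 321 CPM (SD, n = 4), a fold change of 1.96 and a log2 fold change of 0.97 (SE 0.0942, adjusted p = 2.96e-10, edgeR quasi-likelihood test). Without Bbs8+/+ library 1 the Bbs8+/+ mean was 1981 ± 251 CPM and the log2 fold change 0.83, the lowest of its alternatives.

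Whether Mt2 rose by more than Mt1 was tested on the ratio of their counts within each library, which does not depend on how libraries are scaled. Mt1 to Mt2 was 3.04, 1.85, 1.55 and 2.07 in Bbs8+/+ libraries and 1.37, 1.61, 1.62 and 1.61 in Bbs8-/- libraries. The ratio was highest in Bbs8+/+ library 1 and the genotypes overlapped at Bbs8+/+ library 3. The mean log2 ratio differed by -0.41 (exact permutation test, two-sided, p = 0.114; 0.229 adjusted over 4 ratios; n = 4), where the smallest p that 4 against 4 libraries allow is 0.0286. Without Bbs8+/+ library 1 this difference was -0.22. A larger rise of Mt2 than of Mt1 was thus not shown.

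Mt3, the metallothionein best known from neurons and astrocytes, ranged from 68.7 to 87.7 CPM in Bbs8+/+ and from 73.1 to 93.2 CPM in Bbs8-/- libraries. The genotypes overlapped over most of that range, and the log2 fold change was 0.10 (SE 0.139, adjusted p = 0.739, edgeR quasi-likelihood test). Mt3 made up little of the family's RNA: the 3 genes together summed to 5492 ± 311 CPM in Bbs8+/+ and 9039 ± 411 CPM in Bbs8-/- (SD, n = 4), a ratio of 1.65. As a share of all counts on genes, Mt1 and Mt2 took 0.479% to 0.563% in Bbs8+/+ and 0.886% to 0.963% in Bbs8-/- libraries. By mean CPM, Mt1 ranked 17 and Mt2 ranked 27 among all genes, Trf ranked 12 and Mt3 ranked 2124.

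Among the last 500 bases of the transcripts, where 3′ reads fall, no 100-base window of Mt1, Mt2 or Mt3 matched another gene's transcript with up to 4 mismatches, so their reads could be told apart. Gm45774, which overlaps Mt2 on the opposite strand, had 4 counts in Bbs8-/- library 3 and 0 in the other 7 libraries.

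Trf (ENSMUSG00000032554, GRCm38 chr9:103204001-103230444, minus strand) had the highest level of the 10 genes. It stood at 4807, 5209, 5106.5 and 5304 CPM in Bbs8+/+ libraries and at 7154, 7172, 7372 and 7365 CPM in Bbs8-/- libraries. Both groups were tight and far apart. Trf rose from 5107 ± 216 to 7266 ± 119 CPM (SD, n = 4), a fold change of 1.42 and a log2 fold change of 0.51 (SE 0.0463, adjusted p = 5.77e-11, edgeR quasi-likelihood test), and from 0.459% to 0.511% of all counts in Bbs8+/+ libraries to 0.729% to 0.770% in Bbs8-/- libraries. Of the 100-base windows at its transcript end, 29.2% are shared with Gm20425, an annotated transcript on the same strand that had 0 counts in all 8 libraries; reads there belong to both annotations, and their number was not tested.

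Tfrc, the receptor through which cells take up transferrin-bound iron, stood at 29.5, 36.6, 33.9 and 40.1 CPM in Bbs8+/+ and at 50.5, 34.4, 40.4 and 26.6 CPM in Bbs8-/- libraries. The Bbs8-/- libraries spread to both sides of the Bbs8+/+ libraries. The log2 fold change was 0.11 (SE 0.207, adjusted p = 0.814, edgeR quasi-likelihood test), and it was -0.05 without Bbs8-/- library 1, so no direction can be given. The ratio of Trf to Tfrc counts was 163, 143, 151 and 132 in Bbs8+/+ and 142, 208.5, 182 and 277 in Bbs8-/- libraries. Of the Bbs8-/- libraries, library 1 lay within the Bbs8+/+ range and the other 3 above it. The mean log2 ratio was higher by 0.42 in Bbs8-/- (exact permutation test, two-sided, p = 0.114, adjusted 0.229, n = 4) and by 0.26 without Bbs8-/- library 4. A difference in change between Trf and its receptor was therefore not shown.

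Ferritin is a shell of heavy (Fth1) and light (Ftl1) chains, the first of which oxidises iron as it enters. Fth1 ranged from 664 to 799 CPM in Bbs8+/+ and from 726 to 899 CPM in Bbs8-/- libraries, with a log2 fold change of 0.08 (SE 0.0788, adjusted p = 0.602, edgeR quasi-likelihood test) that was 0.0066 without Bbs8-/- library 1 and 0.04 without Bbs8+/+ library 1, and 0.17 with library-size scaling. Ftl1 was at 256, 435, 452 and 341 CPM in Bbs8+/+ and at 498, 419, 408 and 414 CPM in Bbs8-/- libraries. Bbs8+/+ library 1 was the lowest and Bbs8-/- library 1 the highest for both genes, and the genotypes overlapped. Ftl1 had a log2 fold change of 0.23 (SE 0.113) with an unadjusted p of 0.0491 and an adjusted p of 0.211 in edgeR's quasi-likelihood test, and DESeq2 gave an unadjusted p of 0.205. Without Bbs8+/+ library 1 its Bbs8+/+ mean moved from 371 ± 90.7 to 409 ± 59.6 CPM and its log2 fold change to 0.09 (unadjusted p 0.302, adjusted p = 0.621, with adjusted p from 0.0544 to 0.621 over the alternatives). The ratio of Fth1 to Ftl1 ranged from 1.72 to 2.59 in Bbs8+/+ and from 1.75 to 1.82 in Bbs8-/- libraries, a log2 difference of -0.18 (exact permutation test, two-sided, p = 0.4, adjusted 0.4, n = 4) that was -0.06 without Bbs8+/+ library 1. Ftl1 counts are uncertain, since 53.6% of the 100-base windows at its transcript end occur unchanged in other genes and 100% do with up to 4 mismatches, among 18 genes of which 10 are pseudogenes. For Fth1 the shares were 2.00% and 18.5%, with 1 pseudogene.

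Slc40a1 encodes ferroportin, the iron exporter, and was close to the limit of these libraries with 8, 1, 4 and 3 counts in Bbs8+/+ and 0, 5, 1 and 1 in Bbs8-/-. The log2 fold change of -1.12 had a standard error of 1.12 (adjusted p = 0.613, edgeR quasi-likelihood test), so a difference was not detectable at this depth. The log2 ratio of Slc40a1 to Tfrc, with 0.5 added to each count, differed by -1.32 (exact permutation test, two-sided, p = 0.257, adjusted 0.343, n = 4) and by -0.65 without Bbs8-/- library 1. Cp, a ferroxidase that works with ferroportin, had 37, 39, 26 and 33 counts in Bbs8+/+ and 10, 54, 29 and 35 in Bbs8-/- libraries. Bbs8-/- libraries 1 and 2 were its lowest and highest, and the estimate of -0.07 (SE 0.357, adjusted p = 0.943, edgeR quasi-likelihood test) turned to 0.21 without Bbs8-/- library 1, to 0.01 without Bbs8+/+ library 2 and to 0.02 with library-size scaling. Hps3 overlaps Cp on the opposite strand and had 61, 75, 62 and 76 counts in Bbs8+/+ and 96, 54, 74 and 64 in Bbs8-/- libraries. Whether reads were counted by strand is not given in the sources used here, so Cp counts are uncertain.

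Hmox1, the inducible haem oxygenase and a target of the oxidative stress factor Nrf2, had 33, 15, 4 and 12 counts in Bbs8+/+ and 21, 21, 26 and 20 counts in Bbs8-/- libraries. Bbs8+/+ libraries held both its highest and its lowest value. From 5.72 ± 4.00 to 8.38 ± 1.51 CPM (SD, n = 4), the log2 fold change was 0.53 (SE 0.470, adjusted p = 0.561, edgeR quasi-likelihood test); without Bbs8+/+ library 1 it was 1.08 and without Bbs8+/+ library 3 it was 0.23, the highest and the lowest of its alternatives, whose adjusted p ranged from 0.219 to 0.846.

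Ferritin, ferroportin and the transferrin receptor are set to a large part by iron regulatory proteins, which bind a stem-loop in the mRNA, the iron responsive element: in a 5′ UTR it blocks translation, and in the 3′ UTR of Tfrc it protects the mRNA from decay. RNA counts do not measure translation, so the elements found are shown for the genes concerned. Capitals mark the loop CAGTGN; the search required a bulged C before a paired stem of 5 bases, on the transcript strand of GRCm38.
Fth1, chr19:9982733-9982759, plus strand, 5′ UTR: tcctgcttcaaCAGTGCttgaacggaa
Ftl1, chr7:45459780-45459806, minus strand, 5′ UTR: tcttgcttcaaCAGTGTttgaacggaa
Slc40a1, chr1:45925466-45925492, minus strand, 5′ UTR: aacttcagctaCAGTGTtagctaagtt
Alas2, chrX:150547459-150547485, plus strand, 5′ UTR: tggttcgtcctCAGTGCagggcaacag
Tfrc, chr16:32631220-32631246, plus strand, 3′ UTR: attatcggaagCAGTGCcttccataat
Tfrc, chr16:32631599-32631625, plus strand, 3′ UTR: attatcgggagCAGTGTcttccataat
Tfrc, chr16:32631664-32631690, plus strand, 3′ UTR: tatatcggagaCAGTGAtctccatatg
Tfrc, chr16:32631711-32631737, plus strand, 3′ UTR: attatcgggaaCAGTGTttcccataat
Such an element was found in the 5′ UTR of 28 of 21899 genes (0.128%) and in the 3′ UTR of 127 (0.580%), and Tfrc held 4. It was not found in Mt1, Mt2, Mt3, Trf, Cp or Hmox1, which says only that these letters are not in their annotated UTRs.

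**Figure D2:**
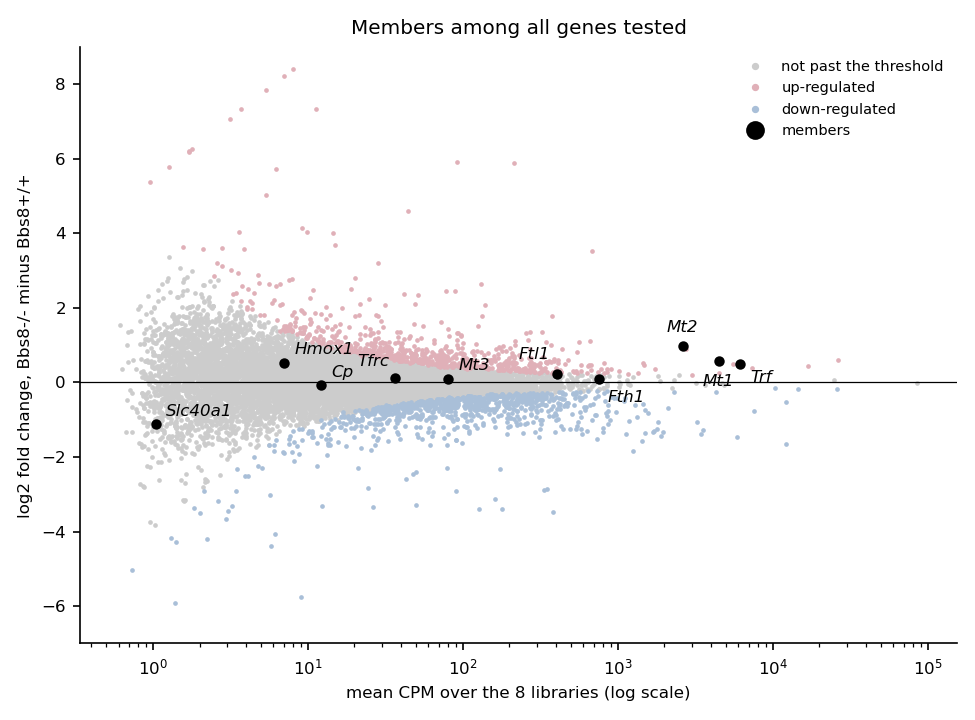
Log2 fold change (vertical axis, Bbs8-/- minus Bbs8+/+) against mean CPM over the 8 libraries (horizontal axis, log scale) for the 12889 genes tested; coloured points passed an adjusted p of 0.05 and black points are the 10 genes. Mt1, Mt2 and Trf sit at the abundant end with log2 fold changes of 0.59, 0.97 and 0.51, and Slc40a1, Cp and Hmox1 at the low end.

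Other genes of metal handling were followed in 10 lists holding 144 genes, of which 125 were tested and 7 had 0 counts in all libraries. Of the 125, 12 were up-regulated and 5 down-regulated by edgeR's quasi-likelihood test, which is 9.6% and 4% of them, against 5.46% and 6.80% over all genes tested, with which the counts of the single lists are to be compared too. The median log2 fold change was 0.04 against 0.02 over all genes tested. Summed over these lists, the level was 9731 ± 108 CPM in Bbs8+/+ and 9691 ± 66.0 CPM in Bbs8-/- libraries (SD, n = 4). Of the 17 calls, 12 held in each of the alternatives in which the gene was tested; Ireb2, Acvr1 and Abcb10 were among the exceptions.

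For iron uptake and reduction, 3 of 10 tested genes rose and 1 fell, with a list median of 0.20. Slc39a14, which carries iron not bound to transferrin as well as zinc and manganese, was at 8.46, 5.97, 9.40 and 3.72 CPM in Bbs8+/+ and at 14.8, 21.5, 18.8 and 17.1 CPM in Bbs8-/- libraries. All Bbs8-/- libraries were higher, with a log2 fold change of 1.39 (SE 0.342, adjusted p = 0.00409). Lrp2, the endocytic receptor megalin, rose from 91.7 ± 4.52 to 136 ± 5.81 CPM (SD, n = 4; log2 fold change 0.57, adjusted p = 0.000585), and Slc22a17, a receptor for the siderophore-binding protein lipocalin 2, from 242 ± 7.68 to 328 ± 20.3 CPM (0.44, adjusted p = 0.000446). Steap2, a metalloreductase of endosomes, fell from 51.4 ± 6.58 to 25.6 ± 4.39 CPM (log2 fold change -1.005, adjusted p = 0.000272). None of these 4 genes overlapped between genotypes.

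In the list of iron storage, chaperones and ferritin turnover, 0 of 7 tested genes rose and 2 fell. Pcbp2, an RNA-binding protein that also delivers iron, fell from 640.0 ± 70.4 to 489 ± 21.8 CPM (log2 fold change -0.39, adjusted p = 0.000798). Its paralogue Pcbp4 stood at 1210.2, 1181, 969 and 1096 CPM in Bbs8+/+ and at 483, 635, 661 and 619 CPM in Bbs8-/- libraries. It was lower in all Bbs8-/- libraries, with a log2 fold change of -0.89 (SE 0.0847, adjusted p = 1.64e-10, edgeR quasi-likelihood test). For iron export and ferroxidases 1 gene of 2 was tested: Heph, the membrane ferroxidase hephaestin, was at 59.2 ± 5.72 and 48.2 ± 6.75 CPM (log2 fold change -0.30, adjusted p = 0.289).

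Among 12 tested regulators of iron, 2 rose and 0 fell. Ireb2, an iron regulatory protein, was at 44.0 ± 7.77 CPM in Bbs8+/+ and 62.9 ± 14.98 CPM in Bbs8-/- (log2 fold change 0.52, adjusted p = 0.0494), with overlap; 9 of 15 alternatives ended this call and its adjusted p ranged from 0.0191 to 0.285. Acvr1, a receptor of the bone morphogenetic proteins that control hepcidin in liver, was at 7.68 ± 4.66 and 17.2 ± 6.87 CPM (1.17, adjusted p = 0.0363), also with overlap, and its call ended without Bbs8+/+ library 1, 2 or 4 or Bbs8-/- library 2 or 3 (adjusted p up to 0.157). The most abundant genes of the list, the hypoxia factors Epas1 and Hif1a, had log2 fold changes of 0.25 (adjusted p = 0.0818) and -0.01 (adjusted p = 0.970); Epas1 passed the threshold with library-size and RPE marker scaling, with the filter at 10 CPM and without Bbs8-/- library 3.

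Haem synthesis had 2 genes up and 2 down of 13 tested. Alad, an early enzyme of the pathway and the most abundant of the list, rose from 145 ± 12.5 to 199 ± 17.9 CPM (log2 fold change 0.46, adjusted p = 0.0023). Alas2, the erythroid form of the first enzyme, stood at 48.7, 35.1, 44.6 and 37.2 CPM in Bbs8+/+ and at 6.98, 14.3, 21.6 and 8.39 CPM in Bbs8-/- libraries. It was lower in all Bbs8-/- libraries (log2 fold change -1.69, SE 0.268, adjusted p = 1.07e-05). Abcb10, a mitochondrial transporter needed for haem synthesis in red cell precursors, was at 22.5 ± 6.19 and 9.78 ± 3.55 CPM (-1.20, adjusted p = 0.00733), and without Bbs8+/+ library 4 its adjusted p was 0.0605 (0.00129 to 0.0605 over the alternatives). Tspo, next in abundance to Alad, had a log2 fold change of 0.03.

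Alas2 belongs to the erythrocyte markers too. Of 10 tested erythrocyte markers 5 fell and 0 rose, and their summed level was 5843, 5276, 5518 and 5548 CPM in Bbs8+/+ and 2343, 2308, 2275 and 2123 CPM in Bbs8-/- libraries. Hbb-bs, a beta globin and the most abundant of them, fell from 2145 ± 68.2 to 845 ± 32.0 CPM (SD, n = 4), and Hba-a1 had a log2 fold change of -1.39. The part of these cells in the fall of Alas2 was not tested. In bulk RNA, fewer cells of a type and less RNA per cell cannot be told apart.

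Among 12 tested genes of haem breakdown and transport, 1 rose and 0 fell. Flvcr2, a transporter first described for haem, was at 66.7, 198, 224 and 171 CPM in Bbs8+/+ and at 355, 412, 317 and 351 CPM in Bbs8-/- libraries. Bbs8+/+ library 1 was far below the other libraries of its genotype, and all Bbs8-/- libraries were higher (log2 fold change 1.13, SE 0.172, adjusted p = 5.78e-06, edgeR quasi-likelihood test). The most abundant genes of the list, Slc48a1 (a haem transporter of lysosomes) and Lrp1 (a receptor for haem bound to hemopexin), had log2 fold changes of -0.18 (adjusted p = 0.186) and 0.18 (adjusted p = 0.231). For mitochondrial iron and iron-sulfur clusters 1 of 25 tested genes rose and 0 fell, with a list median of 0.02. Cisd1, an iron-sulfur protein of the outer mitochondrial membrane, differed by 0.02 on the log2 scale (adjusted p = 0.946).

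Since Mt1 and Mt2 are known targets of Mtf1, zinc transporters were read beside them: of 19 tested genes in that list 1 rose and 0 fell. Mtf1 itself was at 34.9 ± 2.92 and 28.3 ± 7.004 CPM (log2 fold change -0.30, adjusted p = 0.437), and Slc30a1, the zinc exporter that Mtf1 also controls, at 32.5 ± 3.62 and 36.0 ± 11.1 CPM (0.15, adjusted p = 0.758). Slc30a1 and Mtf1 were named for this relation, after their values were seen. Slc30a4, a zinc transporter of vesicles, rose from 41.1 ± 7.95 to 68.4 ± 15.97 CPM (0.74, adjusted p = 0.00428), with overlap, and the most abundant genes Slc39a4 and Slc30a9 had log2 fold changes of 0.06 and -0.16. Of 12 tested copper genes 1 rose: Atp7a, the copper exporter, was at 65.0, 61.5, 47.0 and 58.7 CPM in Bbs8+/+ and at 154, 122, 158 and 119 CPM in Bbs8-/- libraries. Its genotypes were far apart (log2 fold change 1.25, SE 0.139, adjusted p = 8.13e-09, edgeR quasi-likelihood test), whereas Sod1, the most abundant copper gene, had a log2 fold change of 0.02.

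Metallothioneins and Hmox1 also respond to oxidative stress, and of 14 tested Nrf2 targets 1 rose and 0 fell, with a list median of 0.00411. Gsr, glutathione reductase, was at 6.43, 22.01, 26.2 and 21.6 CPM in Bbs8+/+ and at 39.0, 33.0, 42.8 and 44.0 CPM in Bbs8-/- libraries. As with Mt2, Ftl1 and Flvcr2, Bbs8+/+ library 1 was the lowest, and no Bbs8-/- library overlapped (log2 fold change 1.07, SE 0.265, adjusted p = 0.00433, edgeR quasi-likelihood test). Me1 and Prdx1, the most abundant of the list, had log2 fold changes of -0.12 (adjusted p = 0.458) and 0.09 (adjusted p = 0.589). Bbs8+/+ library 1 stood apart from its group in 2.47% of 8428 genes whose mean reached 10 CPM and Bbs8-/- library 1 in 1.92%, against 0.807% to 1.21% for the other libraries; with either of them left out, Mt1, Mt2 and Trf stayed up-regulated.

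**Figure D3:**
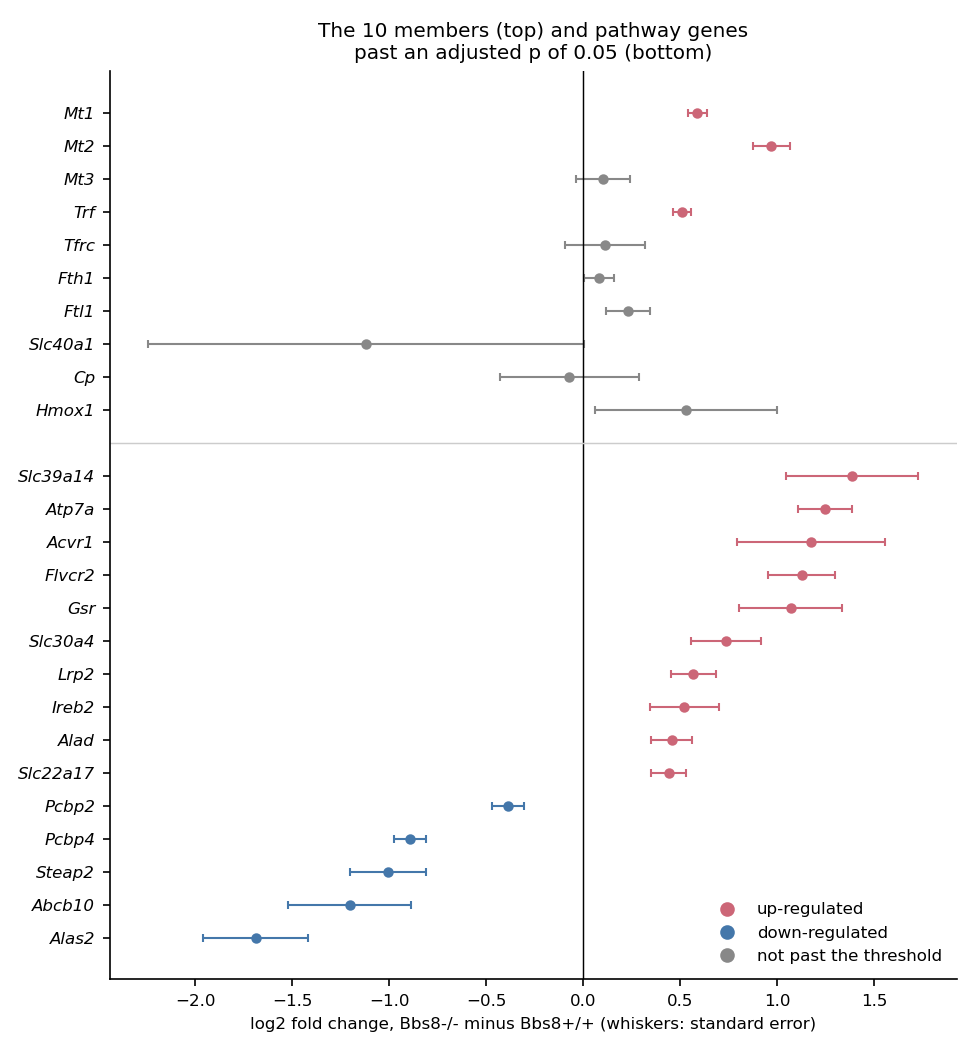
Log2 fold changes (horizontal axis, Bbs8-/- minus Bbs8+/+; whiskers are standard errors) of the 10 genes (top) and of 15 other metal-handling genes past an adjusted p of 0.05 (bottom). Trf and Mt1 have the shortest whiskers, with standard errors of 0.0463 and 0.0491, and Slc40a1 has the longest at 1.12.

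Markers of the cells that an RPE preparation can hold were read beside these results. The RPE label was met: leaving out Ttr, the 17 RPE markers summed to 21910, 22097, 22357 and 22179 CPM in Bbs8+/+ and to 21598, 20997, 21572 and 21016 CPM in Bbs8-/- libraries, a ratio of 0.962, with 5 genes up and 4 down. Rgr was the most abundant of these at 4715 ± 175 and 4687 ± 129 CPM, Rpe65 fell (log2 fold change -0.24, adjusted p = 0.000467), Rlbp1 had a log2 fold change of 0.04, and Best1 was near 0 with 0 to 5 counts in a library. Ttr, which carries thyroxine and retinol-binding protein and is secreted by the RPE like Trf, rose from 20932 ± 540 to 31748 ± 1397 CPM (0.60, SE 0.0355, adjusted p = 3.35e-16, edgeR quasi-likelihood test). With Ttr kept in, the 18 RPE markers summed to 43068 ± 533 CPM in Bbs8+/+ and 53043 ± 1697 CPM in Bbs8-/- libraries (SD, n = 4). That is a ratio of 1.23, with 6 genes up and 4 down. Trf and Ttr are also made in liver. Of 9 liver and plasma markers 5 had 0 counts in all libraries, Alb and Serpina1a among them; Apoa1 had 0 to 4 counts in a library, and Ttr was the most abundant.

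Rod photoreceptor RNA was lower in Bbs8-/- libraries. Of 18 rod and cone markers 14 fell and 3 rose, and their sum was 64357, 60418, 61401 and 63391 CPM in Bbs8+/+ and 25866, 25538, 25112 and 25723 CPM in Bbs8-/- libraries, a ratio of 0.410. Gnat1, the rod transducin subunit, fell by 1.47 on the log2 scale and Sag, the rod arrestin, by 0.77. The 3 genes that rose are cone genes, named after their values were seen: Opn1sw (log2 fold change 0.76, adjusted p = 3.67e-05), Opn1mw (0.84, adjusted p = 0.0261) and Gnat2 (0.70, adjusted p = 0.0297). The cone gene Arr3 was not past the threshold (-0.13, adjusted p = 0.808). Lens markers fell in 19 of 19 tested genes, from sums of 3685, 3647, 3520 and 3710 CPM to 484, 481, 526 and 488 CPM, with Crygb the most abundant (697 ± 45.6 and 62.9 ± 6.68 CPM) and log2 fold changes of -2.88 for Cryaa, -2.86 for Cryba1 and -3.39 for Crygs. The part of the lower rod, lens and erythrocyte RNA in the higher levels of Mt1, Mt2 and Trf was not tested.

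Glial cells express metallothioneins, and oligodendrocytes express Trf. Müller glia and astrocyte markers rose in 7 of 15 tested genes and fell in 0, with sums of 13386, 12546, 11959 and 12738 CPM in Bbs8+/+ and 16084, 16470, 16958 and 16266 CPM in Bbs8-/- libraries, a ratio of 1.30. Clu, their most abundant gene, rose from 4625 ± 258 to 6531 ± 171 CPM and Glul by a log2 fold change of 0.51, while Slc1a3 had 0.82 (adjusted p = 0.139) and Rlbp1 is an RPE marker as well. Oligodendrocyte and Schwann cell markers rose in 2 of 11 tested genes, with sums of 1028, 1011, 1050.2 and 1119 CPM in Bbs8+/+ and 1206, 1278, 1257 and 1234.5 CPM in Bbs8-/- libraries. The 2 that rose were Ermn, the most abundant (log2 fold change 0.27, adjusted p = 0.0233), and Myrf, from 246 ± 46.0 to 328 ± 29.9 CPM (0.42, adjusted p = 0.00606). On average Ermn made up 498.5 of the 1052 CPM summed in Bbs8+/+ and 599 of 1244 CPM in Bbs8-/- libraries. The paper reports Ermn protein in isolated RPE at P29, where it was lower in Bbs8-/- mice. The myelin gene Mbp was at 36.5 ± 0.678 and 37.6 ± 4.15 CPM (log2 fold change 0.04), and Mog had 0 counts in all libraries; Myrf and Mog were named after their values were seen. The part of glial RNA in the results for Mt1, Mt2 and Trf was not tested.

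Markers of the ocular surface epithelium rose in 5 of 8 tested genes, from sums of 81.6, 65.6, 69.5 and 76.9 CPM in Bbs8+/+ to 142, 147, 169.6 and 141 CPM in Bbs8-/- libraries. Krt5 had 0 counts in each Bbs8+/+ library and 24, 31, 57 and 35 in Bbs8-/- libraries, Krt14 had 0 and then 12, 6, 6 and 12, Krt12 had 0 throughout, and Perp was the most abundant (log2 fold change 0.32, adjusted p = 0.255). Their part in the results for Mt1, Mt2 and Trf was not tested.

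Macrophage and microglia markers had 1 gene up and 1 down of 16 tested (summed ratio 0.938), with Csf1r the most abundant at a log2 fold change of -0.28 (adjusted p = 0.0658), C1qa at 0.03 and Cx3cr1 at 0.16. Endothelial markers had 0 of 10 past the threshold by edgeR, and 0 at an unadjusted p under 0.05 (ratio 1.15), with Kdr the most abundant and Pecam1, Cdh5 and Tek at 0 to 10 counts in a library. Fibroblast and pericyte markers had 0 up and 2 down of 11 (ratio 0.860), with Dcn at a log2 fold change of 0.00, Col1a1 at -0.37 and Pdgfrb at -0.17. For melanocyte markers, 2 genes rose and 1 fell of 8 (ratio 0.966), with Dct the most abundant at 3726 of the summed 4337 CPM in Bbs8+/+; Dct, Pmel and Mlana are on the RPE list too. Sox10 had a log2 fold change of 0.17, Kit of 0.88 (adjusted p = 0.164) and Ednrb of 0.29 (adjusted p = 0.842). Bipolar, amacrine and ganglion neuron markers had 1 up and 1 down of 14 (ratio 0.945), with Slc6a9 the most abundant, Prkca at -0.56 (adjusted p = 0.00282), and Grm6 at 0 to 11 counts in a library.

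**Figure D4:**
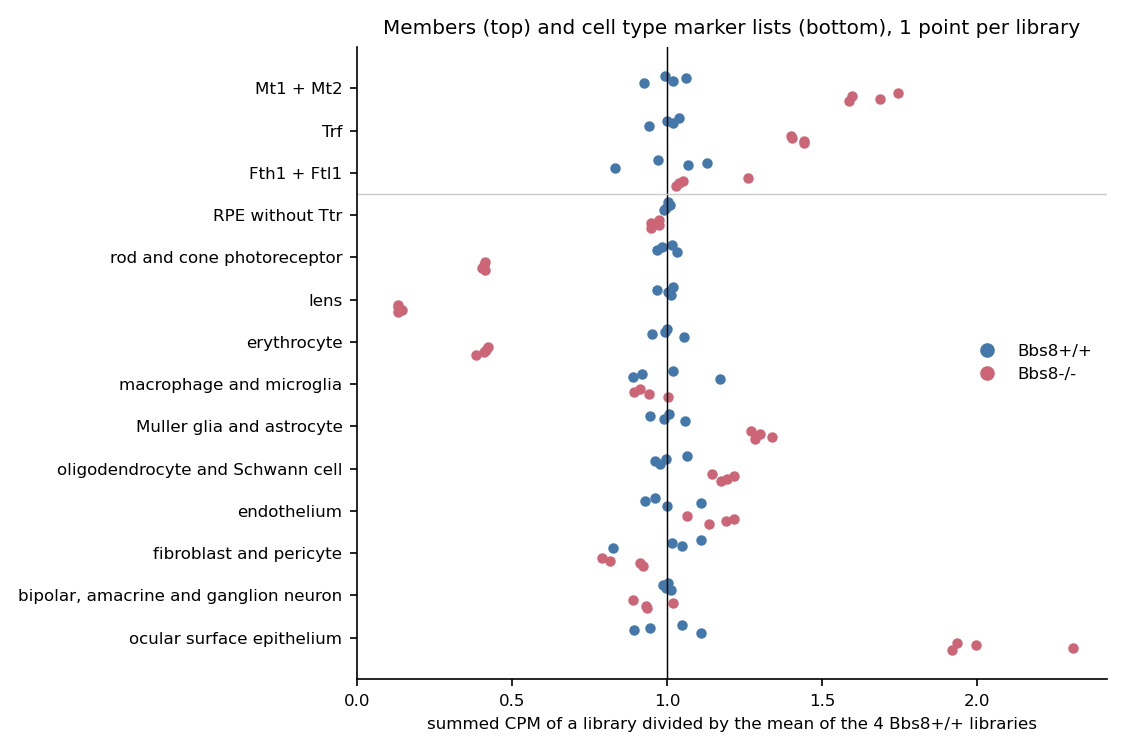
Summed CPM of each library divided by the mean of the 4 Bbs8+/+ libraries (horizontal axis) for Mt1 with Mt2, Trf and the ferritins (top) and for 11 cell type marker lists (bottom); each point is 1 library. Mt1 with Mt2 and Trf lie to the right in all 4 Bbs8-/- libraries, the RPE list without Ttr stays near 1, the photoreceptor, lens and erythrocyte lists lie far to the left, and the ocular surface list lies far to the right.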

How the data were processed

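RPE was isolated from 4 Bbs8-/- and 4 Bbs8+/+ mice at P29, and QuantSeq 3′ libraries were sequenced single-end. The authors trimmed the reads with BBDuk, aligned them with STAR to mm10 and assigned reads that mapped uniquely to genes by htseq-count; the deposited values are these raw counts. Entries that name no gene were left out: 17.0% to 20.6% of the reads fell on no annotated gene and 32.8% to 34.5% did not map uniquely. Genes that reached 1 CPM in 4 or more libraries were tested in R 4.3.3 with edgeR 4.0.16 (quasi-likelihood F test, TMM, two-sided, Benjamini-Hochberg over all 12889 genes tested); fold changes are Bbs8-/- over Bbs8+/+. Ratios were tested by exact permutation over libraries in Python 3.11.15 with scipy 1.17.1. The code was tested on simulated counts. Alternatives were DESeq2 1.42.0, other scalings and filters, the replicate number as a block, and leaving out each library. The members and lists were chosen with earlier results of these data known.

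Named were Ttc8, the 10 members, in each pathway list those called whose mean reached 10 CPM (at most 5) and the 2 most abundant, and in each marker list the first 3 and the most abundant; some of these are not reported here. Promoter windows come from RefSeq on GRCm38.p6, and transcripts and coordinates from the Ensembl annotation of GRCm38.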

Additional observations from a re-analysis of the deposited data

Results flagged for a closer look

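In Bbs8-/- library 1, Fth1 was at 899.14 CPM, far from the next Bbs8-/- library at 746.75 CPM, and Ftl1 was at 498.02 CPM, against 418.52 CPM in the next. These are 2 of 20 groups of 4 libraries examined, where chance gives about 1 in 20. Reads that fell on no annotated gene, which enter no comparison, made up on average 20.237% of the reads in Bbs8-/- libraries and 17.482% in Bbs8+/+ libraries. Without Bbs8-/- library 1, the log2 fold change of Fth1 was 0.0066 in place of 0.08 and that of Ftl1 was 0.16 in place of 0.23, and neither was past the threshold with or without it. The part of the reads on no gene in the results was not tested.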

How the results depend on the processing

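Mt1, Mt2 and Trf were the genes of the 10 called in all 15 alternatives, with log2 fold changes of 0.57 to 0.68, 0.83 to 1.09 and 0.48 to 0.60 and adjusted p of at most 2.43e-09, 1.76e-06 and 2.18e-08. Of 144 values for the 10 genes under the alternatives, 140 kept their direction and side of the threshold. The others turned sign: Cp to 0.018 with library-size scaling and, leaving out single libraries, Tfrc over -0.052 to 0.25 (below 0 without Bbs8-/- replicate 1) and Cp over -0.41 to 0.21 (above 0 without Bbs8+/+ replicate 2 or Bbs8-/- replicate 1). None was past the threshold; the cause was not tested. The filter left Slc40a1 tested in 10 of the 15 alternatives and Hmox1 in 14, neither of them with 10 CPM in 4 libraries as the filter. With 3 libraries against 4 the exact test cannot go below 0.0571. For Slc40a1 to Tfrc, adding 0.5 gave no separate value, since it was needed from the start. Scaling to RPE markers, which left out Ttr, was chosen after seeing the data.

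With the replicate number as a replicate block, 650 genes rose and 827 fell, of which 631 and 807 were also called without it; 3 of the 10 genes rose (Mt1 by 0.59, Mt2 by 1.00, Trf by 0.51), and Ireb2 was lost. Deviations of same-numbered libraries had correlations of -0.0285 to 0.00859, so the numbers gave no sign of pairing.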

Other observations

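Other genes, chosen after their values were seen, rose further than any of the 10 metal-handling genes. Serpina3n, a serine protease inhibitor and one of the Müller glia and astrocyte markers, was at 8.12, 6.34, 8.58 and 5.20 CPM in Bbs8+/+ and at 454, 425, 417 and 397 CPM in Bbs8-/- libraries (log2 fold change 5.90, adjusted p = 5.53e-28, edgeR quasi-likelihood test). The protease inhibitor A2m rose from 109 ± 18.1 to 1251 ± 73.4 CPM and the complement component C4b from 3.02 ± 1.09 to 182 ± 13.01 CPM (SD, n = 4), without overlap. Gfap, which astrocytes and reactive Müller glia express, had 1, 0, 6 and 4 counts in Bbs8+/+ and 17, 23, 10 and 11 in Bbs8-/- libraries (log2 fold change 2.41, adjusted p = 0.0417).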
